A study of Mus musculus with 16 samples.

Results

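The 10 genes described here are antagonists of Wnt signalling and genes that canonical Wnt signalling is known to switch on: Axin2, Lef1, Nkd1, Notum, Dkk1, Dkk2, Dkk3, Sfrp1, Sfrp2 and Wif1. They were taken by name, through the probe sets that the platform annotation gives to 1 of these genes alone. These were 21 of the 45101 probe sets on the array, and 10 of 18193 genes represented. RNA came from the palate mesenchyme of C57BL/6J mouse embryos that carried 2 floxed copies of Erk2, which encodes a MAP kinase. Mutants (Erk2 fl/fl; Wnt1-Cre) also carried Wnt1-Cre, which is expressed in the neural crest, and controls (Erk2 fl/fl) did not, although the sample titles name the controls wild-type. There were 3 mutant and 3 control arrays at E13.5, and 5 and 5 at E14.5, where replicates 1 and 2 of each genotype form batch 1 and replicates 3, 4 and 5 form batch 2. Cells that do not descend from neural crest, such as epithelium, endothelium and muscle, are not reached by this driver. The study asked how loss of Erk2 affects the metabolism of palate mesenchyme.

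Wnt ligands bind Frizzled receptors and LRP co-receptors, which stabilises beta-catenin. Beta-catenin then joins TCF and LEF proteins on DNA and switches on target genes, several of which feed back to damp the signal. Wnt signalling in the epithelium and mesenchyme of the palatal shelves is known to be needed for their growth, and Wnt signals also act in the bone that forms in the palate. Axin2 is a scaffold of the complex that degrades beta-catenin, Lef1 is a DNA-binding partner of beta-catenin, Nkd1 binds Dishevelled, and Notum removes a lipid from Wnt ligands. Dkk1 and Dkk2 bind LRP co-receptors, and Sfrp1, Sfrp2 and Wif1 bind Wnt ligands outside the cell. Dkk3 is a divergent relative of Dkk1 and Dkk2.

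How many embryos went onto an array is not in the labels, so p-values reflect the spread among these samples alone, which may be technical. On the log2 scale, the medians of the E13.5 arrays lay between 3.39 and 3.44 and those of the E14.5 arrays between 1.63 and 1.66. Arrays of 1 group correlated at 0.993 to 0.997 across genes. The level of the targeted gene was not analysed here. All 20 markers listed for palatal mesenchyme were measured, with a mean log2 level of 8.32 to 9.01 on each array. At E14.5, 13 of 21 markers of oral epithelium rose in mutants, whose mean was 7.12 to 7.40 against 6.71 to 6.81 in controls. Of 8 bone markers, 6 fell, and at E13.5 none passed and 7 lay below controls. Of all genes tested, 1.48% rose and 1.15% fell at E14.5, and 31.5% lay above controls at E13.5. Markers of skeletal muscle averaged 6.65 to 6.99 in E13.5 mutants and 6.03 to 6.33 in controls, although none of the 19 passed. None passed at E14.5 either, where muscle means were lowest in controls 1 and 3 (4.90 and 4.87) and between 5.62 and 7.04 elsewhere. By Xist and Y-linked transcripts, all 6 arrays of E13.5 were female, as were 3 of 5 E14.5 mutants but 1 of 5 E14.5 controls. In bulk tissue, fewer cells of a type and less RNA per cell cannot be told apart.

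None of the 9 members tested differed between genotypes at either stage at an adjusted p under 0.05 (limma, Benjamini-Hochberg over 11115 genes). The test took in genes with 3 or more arrays at a log2 value of 4 or above, and Notum was not among them. At E13.5, 0.099% of all genes tested passed, and at E14.5, 2.63%, or 292 genes, a count that fell to 105 without E14.5 mutant 1. At an unadjusted p under 0.05, 3 of the 9 members lay below that limit at E13.5 (Dkk1, Dkk3 and Wif1) and 5 at E14.5 (Axin2, Dkk1, Dkk2, Dkk3 and Sfrp2). The same held for 9.54% and 17.3% of all genes. The members' median log2 difference was −0.13 at E13.5 and −0.17 at E14.5, where all genes had medians of −0.04 and 0.01. Of the 9, 8 lay below controls at E13.5 and 6 at E14.5, where 31.5% and 56% of all genes tested lay above them. By the probe set that stood for each gene, the antagonists Dkk1, Dkk3, Sfrp1, Sfrp2 and Wif1 lay below controls at both stages and Dkk2 above them. Exceptions at E13.5 were Sfrp2 with the beta-actin signal as a term (0.029), Dkk2 without mutant 2 (−0.0076), the second Dkk3 probe set (0.03), 3 of the other 4 Sfrp1 probe sets (0.18, 0.49 and 0.54) and the mean over its 5 (0.11). At E14.5, 2 other Sfrp1 probe sets lay above controls (0.06 and 0.10).

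**Figure D1:**
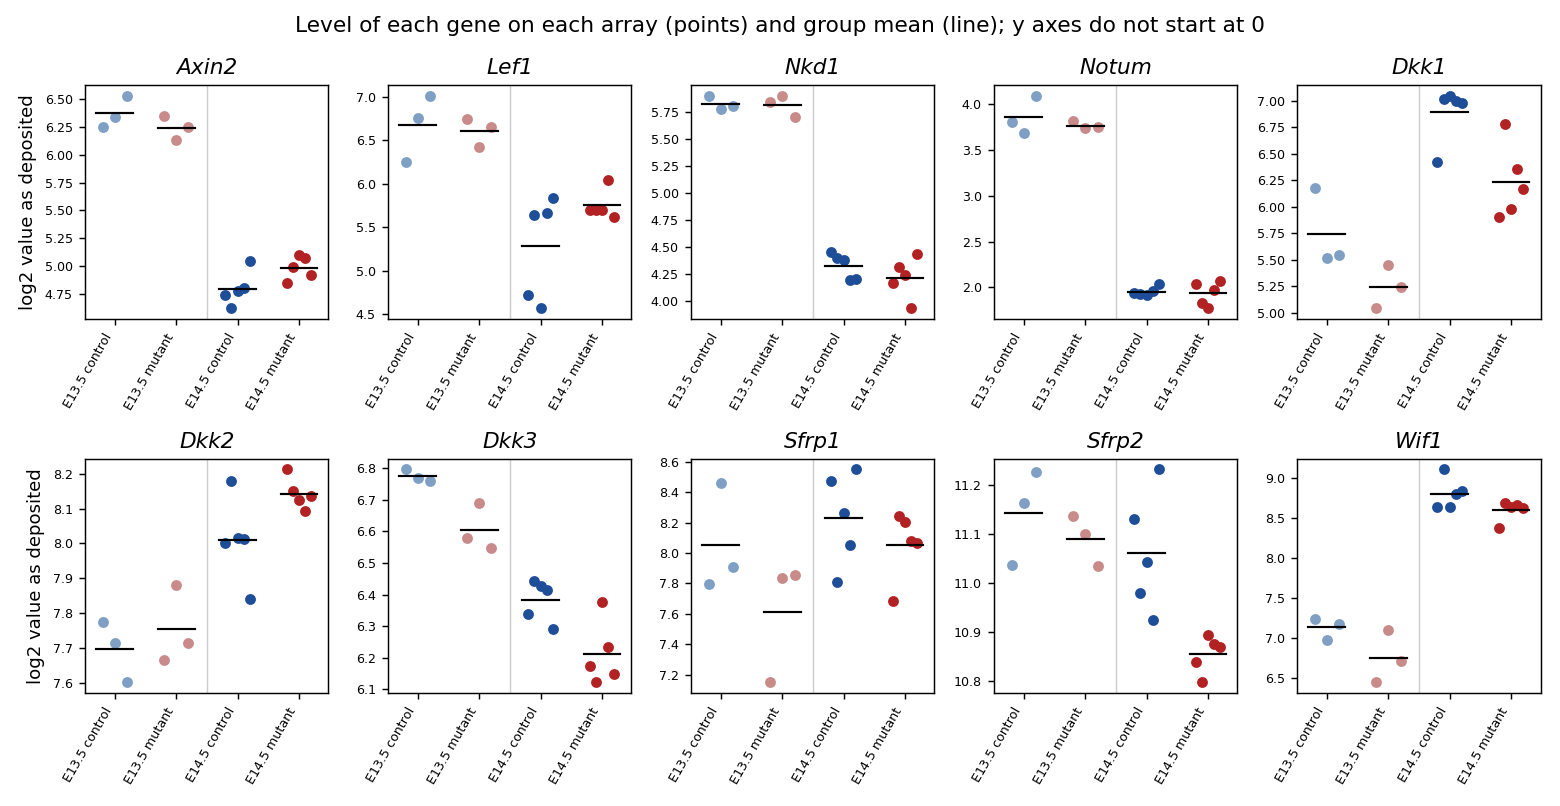
Log2 expression values as deposited (y axis) of each of the 10 genes on each array (points) by stage and genotype (x axis), with group means as lines. Within each group, points run from replicate 1 on the left. At E14.5 the 5 Sfrp2 values of mutants, 10.80 to 10.89, lie below all 5 controls, and Lef1 is low in controls 1 and 3 alone.

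Dkk1, which binds LRP co-receptors, was read by a pair of probe sets, of which the brighter stood for the gene. At E14.5 its log2 level was 5.90, 6.78, 5.98, 6.35 and 6.17 in mutants 1 to 5. In controls 1 to 5 it was 6.42, 7.02, 7.05, 6.99 and 6.98. Mutant 2 lay above control 1, and every other mutant lay below every control. The difference was −0.65 ± 0.18 (moderated SE, 95% confidence interval −1.04 to −0.27, n = 5 and 5), or 0.636 times the control level, and did not pass (limma adjusted p = 0.072). It was −0.37 in batch 1, where the arrays overlapped, and −0.84 in batch 2, where they did not. In a fit with batch 2 alone Dkk1 passed (limma adjusted p = 0.041). It also passed without mutant 2 (−0.83, adjusted p = 0.010) and without control 1 (−0.79, adjusted p = 0.037). At E13.5 Dkk1 was 5.04, 5.45 and 5.25 in mutants, and controls read 6.18, 5.51 and 5.55. These groups did not overlap, which was so for Dkk1 and Dkk3 among the 9 members and for 17.9% of all genes tested. The E13.5 difference was −0.50 ± 0.23 (n = 3 and 3, limma adjusted p = 0.52), and without control 1 it was −0.28.

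A second Dkk1 probe set (1458232_at) was dimmer and gave a larger difference. It read 2.98, 4.00, 3.33, 3.43 and 3.15 in E14.5 mutants. In E14.5 controls it read 3.82, 4.72, 4.38, 4.31 and 4.75. As in the brighter probe set (1420360_at), mutant 2 was the highest mutant and control 1 the lowest control. When every probe set was tested for itself its difference was −1.02 ± 0.20 (n = 5 and 5), which passed at a limma adjusted p of 0.028, as did 1.25% of 19740 probe sets. It entered that fit only through 4 arrays at or above 4, all of them E14.5 controls, so it was taken in through the group in which it was higher. The call held in 12 of 23 alternatives and was lost in 11, in which the adjusted p reached 0.31 with batch 1 alone. It was lost without mutants 1, 3, 4 or 5 (adjusted p = 0.084, 0.057, 0.051 and 0.081) and without controls 2, 3 or 5 (0.077, 0.057 and 0.055). Deviations of the 2 probe sets from their group means correlated across the 16 arrays (Pearson r = 0.884, Spearman rho = 0.835, permutation p = 3e-05 and 0.00014, adjusted 0.00018 and 0.00042 over 12 pairs). Without the 2 arrays farthest out, r was 0.78.

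The bone markers moved with Dkk1. Their mean was 7.30 to 8.05 in E14.5 mutants and 7.93 to 8.49 in controls, and 4.83 to 5.25 against 5.43 to 5.71 at E13.5. The bone mean of mutant 2, 8.05, was the highest of the E14.5 mutants, and that of control 1, 7.93, the lowest of the controls, as for Dkk1. After group means and batch were removed, Dkk1 correlated with the bone mean over 16 arrays (r = 0.859, rho = 0.8). Permutation p was 1e-05 for r, the smallest that 100000 resamples can give, and 0.0003 for rho, or 0.0009 and 0.027 adjusted over 90 pairs of a member and a marker list. Without the 2 arrays of most extreme Dkk1 deviation r was 0.719. The part of bone cells in the genotype difference of Dkk1 was not tested. The genes most like Dkk1 over the 10 E14.5 arrays were Pxdc1, Phex and Ramp1 (Pearson r = 0.968, 0.965 and 0.965), named here after their values were seen. For this ranking the batch mean was removed but the genotype difference was not, so a shared genotype difference can add to r. Over the 6 E13.5 arrays r was −0.68, 0.25 and 0.76. Phex, an endopeptidase of bone mineralisation, is also in the bone list.

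**Figure D2:**
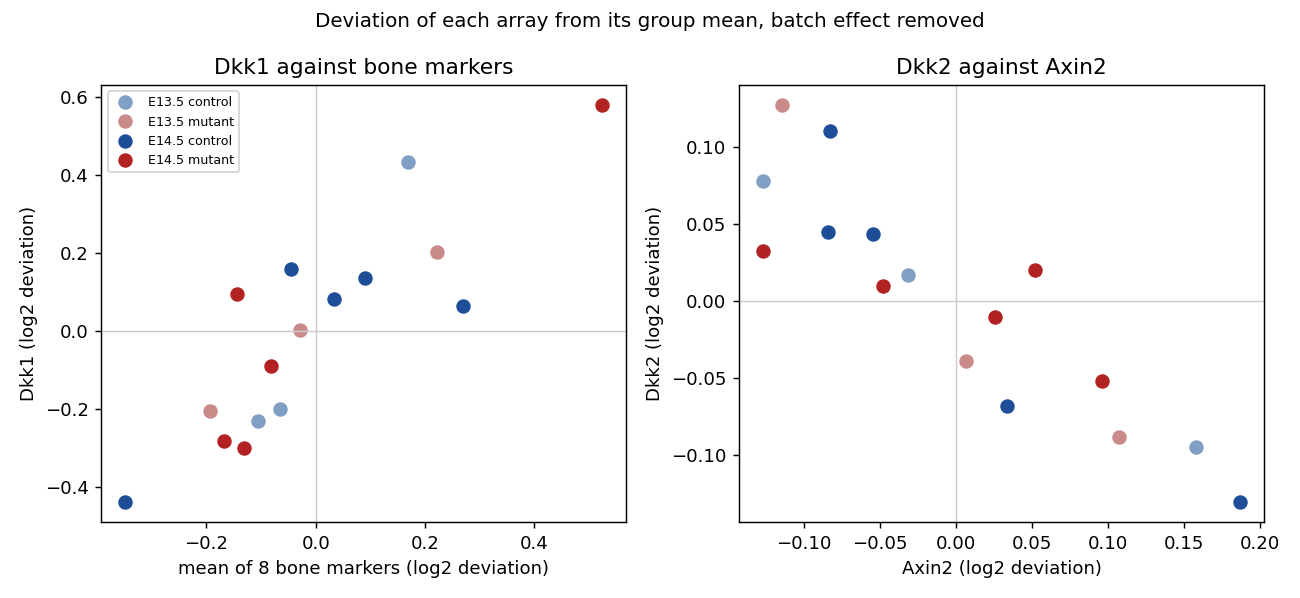
Deviation of each of the 16 arrays from its group mean on the log2 scale, with the batch effect removed, coloured by group. On the left Dkk1 is plotted against the mean of 8 bone markers (r = 0.859), and on the right Dkk2 against Axin2 (r = −0.898).

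Sfrp2, which binds Wnt ligands, did not overlap between genotypes at E14.5. It read 10.84, 10.80, 10.89, 10.87 and 10.87 in mutants. Controls read 11.13, 10.98, 11.04, 10.92 and 11.23. This also held after the batch effect was removed, and was so for 4.9% of all genes tested and no other member. The difference was −0.21 ± 0.06 (n = 5 and 5, limma adjusted p = 0.072), or 0.866 times the control level, and was −0.24 in batch 1 and −0.19 in batch 2. It passed with a variance trend (adjusted p = 0.038), with the beta-actin signal as a term (0.033) and without control 4 (0.033). At E13.5 the groups overlapped, with 11.14, 11.10 and 11.03 in mutants against 11.04, 11.16 and 11.23 in controls (−0.05 ± 0.07). The difference between the stages' genotype effects was −0.16 ± 0.09 (limma adjusted p = 0.58).

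Dkk3, the divergent relative of Dkk1, was at −0.17 at both stages by its brighter probe set, and the 95% confidence interval of the difference between the stages was −0.18 to 0.18. At E13.5 it was 6.58, 6.69 and 6.55 in mutants and 6.80, 6.77 and 6.76 in controls, without overlap (−0.17 ± 0.07, limma adjusted p = 0.44). At E14.5 mutants read 6.17, 6.12, 6.38, 6.23 and 6.15, and controls 6.34, 6.44, 6.43, 6.41 and 6.29. Mutant 3 lay among the controls and the other mutants below all of them. The E14.5 difference was −0.17 ± 0.05 (limma adjusted p = 0.096), or −0.24 in batch 1 and −0.12 in batch 2, and without mutant 3 it was −0.21 and passed (adjusted p = 0.040). Its second probe set (1417312_at) gave −0.03 ± 0.13 at E14.5 and 0.03 ± 0.17 at E13.5. Across arrays, Dkk3 deviations correlated with the mean of 9 neuron markers (r = 0.796, permutation p = 0.00044, adjusted 0.02; rho = 0.747, permutation p = 0.0013, adjusted 0.058). Without the 2 arrays farthest out r was 0.687. Neuron means were 3.94 to 5.01 in E14.5 mutants and 4.05 to 4.66 in controls, none of the 9 passed at either stage, and the part of neurons was not tested.

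Wif1, a secreted inhibitor that binds Wnt ligands, was 6.45, 7.10 and 6.72 in E13.5 mutants against 7.24, 6.98 and 7.18 in controls. The difference was −0.37 ± 0.15 (limma adjusted p = 0.46), and mutant 2 overlapped the controls. Without mutant 1 it was −0.22. At E14.5 mutants read 8.38, 8.68, 8.64, 8.67 and 8.62, and controls 8.64, 9.11, 8.63, 8.80 and 8.84. The groups overlapped, and the difference was −0.21 ± 0.12 (limma adjusted p = 0.40). It was −0.34 in batch 1 and −0.12 in batch 2, and −0.11 without control 2. Dkk2, an LRP-binding relative of Dkk1, was 8.21, 8.15, 8.12, 8.09 and 8.14 in E14.5 mutants, 8.18 in control 2 and between 7.84 and 8.01 in the other 4 controls. Every mutant lay above 4 of the 5 controls, with control 2 the exception (0.13 ± 0.06, limma adjusted p = 0.24). At E13.5 Dkk2 differed by 0.06 ± 0.07.

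**Figure D3:**
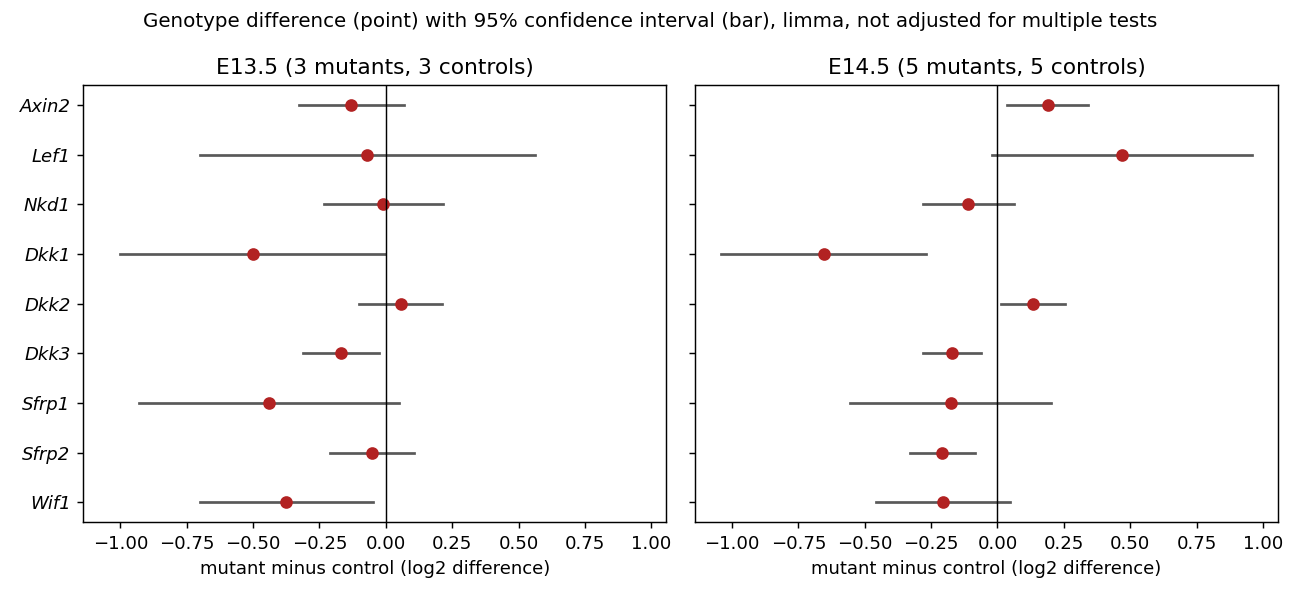
Mutant minus control log2 difference (x axis, point) with its 95% confidence interval (bar) for each of the 9 genes tested (y axis), at E13.5 on the left and E14.5 on the right. Intervals come from limma and are not adjusted for multiple tests. Dkk1 at E14.5 is at −0.65.

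The targets gave no common direction between genotypes. Axin2, often read as a gauge of canonical Wnt activity, was 4.85, 4.99, 5.10, 5.07 and 4.92 in E14.5 mutants and 4.74, 4.62, 4.78, 4.80 and 5.05 in controls. Every mutant lay above 4 of the 5 controls, and control 5 lay among the mutants. The difference was 0.19 ± 0.07 (limma adjusted p = 0.18), and it was 0.24 in batch 1 and 0.16 in batch 2. At E13.5 the values overlapped, with mutants at 6.35, 6.13 and 6.25 and controls at 6.25, 6.34 and 6.53 (−0.13 ± 0.09). The E14.5 effect exceeded that of E13.5 by 0.32 ± 0.12. This had the smallest p of the 9 members (0.016), but did not pass (limma adjusted p = 0.37), and 0.117% of all genes tested passed for that difference. The second Axin2 probe set lay under 2 on all 16 arrays. Genes most like Axin2 over the 10 E14.5 arrays were Sympk, Agtrap and Upk2 (Pearson r = 0.944, 0.935 and 0.931), and over the 6 E13.5 arrays their r was 0.72, 0.07 and −0.31. As for Dkk1, the genotype difference was left in.

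Lef1 was 5.70, 5.70, 5.70, 6.04 and 5.61 in E14.5 mutants. Controls read 4.72, 5.64, 4.57, 5.67 and 5.83. Controls 1 and 3, which also had the lowest muscle means, stood apart, and the other 3 controls lay among the mutants. The difference was 0.47 ± 0.23 (limma adjusted p = 0.32) with all arrays and 0.05 without controls 1 and 3. The muscle mean and Lef1 had an r of 0.641 across arrays (permutation p = 0.0079, adjusted 0.14; rho = 0.571, permutation p = 0.024, adjusted 0.25), and 0.372 without the 2 arrays farthest out. At E13.5 Lef1 was 6.75, 6.42 and 6.65 in mutants and 6.25, 6.76 and 7.01 in controls (−0.07 ± 0.30). Nkd1, an inhibitor induced by Wnt signalling, was 4.17, 4.31, 4.24, 3.93 and 4.44 in E14.5 mutants and 4.45, 4.40, 4.38, 4.20 and 4.21 in controls. The groups overlapped (−0.11 ± 0.08, limma adjusted p = 0.52), and at E13.5 the difference was −0.01 ± 0.10. Notum was low on every array, between 3.68 and 4.09 at E13.5 and between 1.77 and 2.07 at E14.5, and was not tested.

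Axin2 and Dkk2 varied in opposite ways from array to array. Deviations from group means correlated at r = −0.898 and rho = −0.885 over 16 arrays, with permutation p = 1e-05 for each, the smallest that 100000 resamples can give, and 0.00036 adjusted over 36 pairs of members. Without the 2 arrays of most extreme Axin2 deviation r was −0.838. The deviations were small, between −0.13 and 0.19 for Axin2. No other pair of members passed for r, and 3 others passed for rho alone. The permutations took no account of the group means and batch removed beforehand, so these p may be too small. Dkk2 and Dkk3 varied together (r = 0.658, permutation p = 0.0051, adjusted 0.051; rho = 0.741, permutation p = 0.0016, adjusted 0.029), as did Dkk1 and Wif1 (r = 0.572, permutation p = 0.02, adjusted 0.13; rho = 0.685, permutation p = 0.0046, adjusted 0.041). Lef1 and Nkd1 varied in opposite ways (r = −0.572, permutation p = 0.021, adjusted 0.13; rho = −0.7, permutation p = 0.0034, adjusted 0.041). Without the 2 arrays farthest out r was 0.489, 0.578 and −0.558 for these 3 pairs.

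The 5 probe sets of Sfrp1, a secreted Wnt-binding antagonist, did not vary alike. The brightest, 1448395_at, which stood for the gene, was 7.15, 7.83 and 7.86 in E13.5 mutants and 7.79, 8.46 and 7.91 in controls (−0.44 ± 0.23, limma adjusted p = 0.57). Probe set 1428136_at was 8.18, 7.53 and 7.50 in those mutants and 7.43, 6.81 and 7.49 in those controls, a difference of 0.49 ± 0.24. Probe set 1460187_at gave 0.54 ± 0.37, 1438620_x_at −0.22 ± 0.16 and 1416594_at 0.18 ± 0.12. So mutant 1, the lowest E13.5 array by 1448395_at, was the highest by 1428136_at. Across the 16 arrays, deviations of these 2 probe sets correlated at r = −0.932 and rho = −0.897 (permutation p = 1e-05 for each, the smallest possible, adjusted 0.00012). Without the 2 arrays farthest out r was −0.916. Probe set 1438620_x_at ran with 1448395_at (r = 0.816, rho = 0.85, permutation p = 0.00014 and 9e-05) and against 1428136_at (r = −0.821, rho = −0.85, permutation p = 8e-05 and 5e-05). Probe set 1460187_at ran with 1428136_at (r = 0.799, rho = 0.756, permutation p = 0.00024 and 0.0009) and against 1448395_at (r = −0.784, rho = −0.8, permutation p = 0.00035 and 0.00026). The highest adjusted p of these 4 pairs was 0.0018, and without the 2 arrays farthest out their r was 0.774, −0.741, 0.796 and −0.782. At E14.5 the 5 probe sets gave −0.21, 0.06, −0.15, −0.18 and 0.10 in order of name, and none passed (lowest limma adjusted p = 0.32). A direction for Sfrp1 between genotypes therefore depended on the probe set read.

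**Figure D4:**
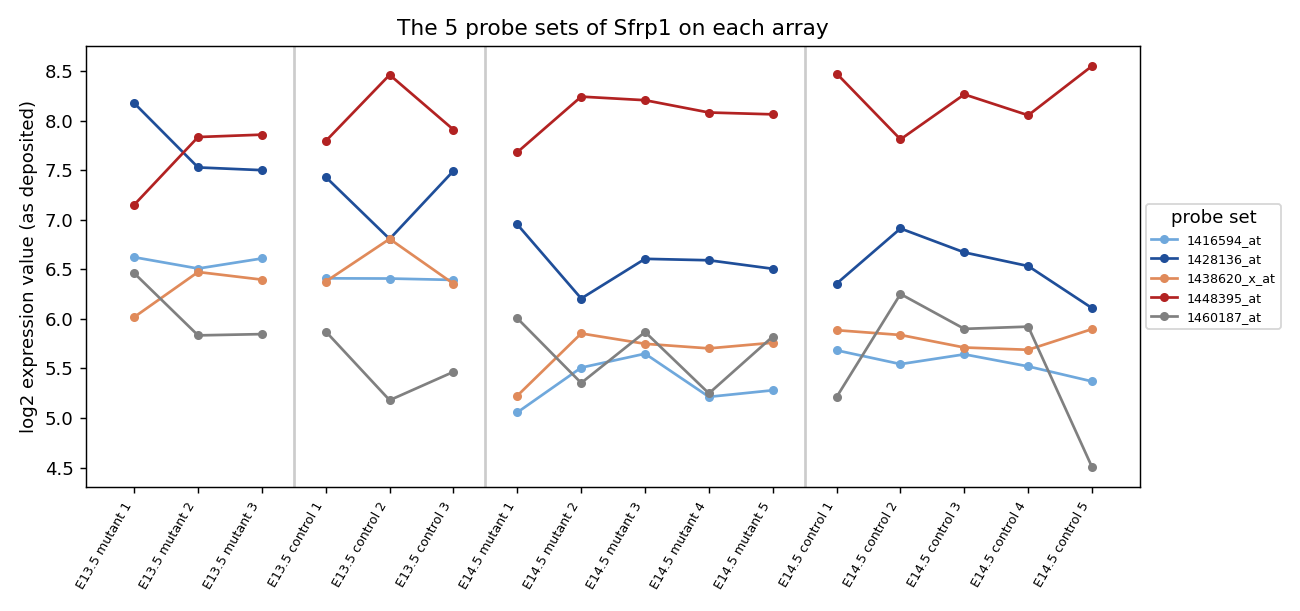
Log2 values as deposited (y axis) of the 5 Sfrp1 probe sets on each of the 16 arrays (x axis), with lines joining arrays of 1 group. On E13.5 mutant 1, probe set 1448395_at is at 7.15 and 1428136_at at 8.18, and on E14.5 control 5 they are at 8.55 and 6.11.

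Between E13.5 and E14.5 the members moved apart. The stages may have been normalized in separate runs, which the labels do not say, and stage and such runs cannot be told apart. A stage change was therefore called only where call and direction held as deposited and after quantile normalization of all arrays. The median over all genes was −0.63 in controls and −0.56 in mutants as deposited, and −0.08 and −0.06 after quantile normalization. Dkk1, Dkk2 and Wif1 rose in both genotypes, as did 11.6% of all genes in controls and 13.4% in mutants. Wif1 rose by 1.67 ± 0.14 in controls and 1.84 ± 0.14 in mutants as deposited, and by 2.01 and 2.19 after quantile normalization. In controls its 3 E13.5 arrays, 6.98 to 7.24, lay below its 5 E14.5 arrays, 8.63 to 9.11. Its change exceeded that of 99.3% of genes in controls. Dkk1 rose by 1.14 ± 0.21 and 0.99 ± 0.21 as deposited and by 1.94 and 1.95 after quantile normalization, and exceeded 98.7% of genes in controls. Both Dkk1 calls were lost with the replicate block (0.63 and 0.47, limma adjusted p = 0.058 and 0.14). That fit compared the stages at the level of replicate 1, so it did not measure the change over all replicates. Dkk2 rose by 0.32 ± 0.07 in controls and 0.40 ± 0.07 in mutants. Bone markers rose too, 8 of 8 in controls and 7 of 8 in mutants as deposited, and their part was not tested.

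Axin2 and Nkd1 fell in both genotypes and Lef1 in controls as deposited and after quantile normalization, but with each array centred on its median all 3 lay above 0 in both genotypes. In all, 43.7% of genes fell in controls and 42.3% in mutants by the same rule, so falls of this kind were common. Axin2 fell by 1.59 ± 0.08 in controls and 1.27 ± 0.08 in mutants. Relative to the median over all genes these changes were −0.96 and −0.71, and after quantile normalization −0.69 and −0.48. Nkd1 fell by 1.49 ± 0.09 in controls and 1.59 ± 0.09 in mutants, or −0.85 and −1.03 relative to all genes. Lef1 fell by 1.41 ± 0.27 in controls, and its value in mutants, −0.87 ± 0.27, did not pass after quantile normalization (−0.33, limma adjusted p = 0.25). The difference between these Lef1 changes did not pass (0.54 ± 0.37, limma adjusted p = 0.63). E14.5 controls 1 and 3 read 4.72 and 4.57, against 5.64 to 5.83 in the other E14.5 controls. Sfrp2 fell by 0.24 ± 0.07 in mutants and was at −0.08 ± 0.07 in controls, while centred on array medians it lay above 0 in both. Its call in mutants was lost with the replicate block (−0.18, limma adjusted p = 0.16), which compared the stages at the level of replicate 1 and not over all replicates. The difference between the changes of Sfrp2 in mutants and controls did not pass, as given above. 

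**Figure D5:**
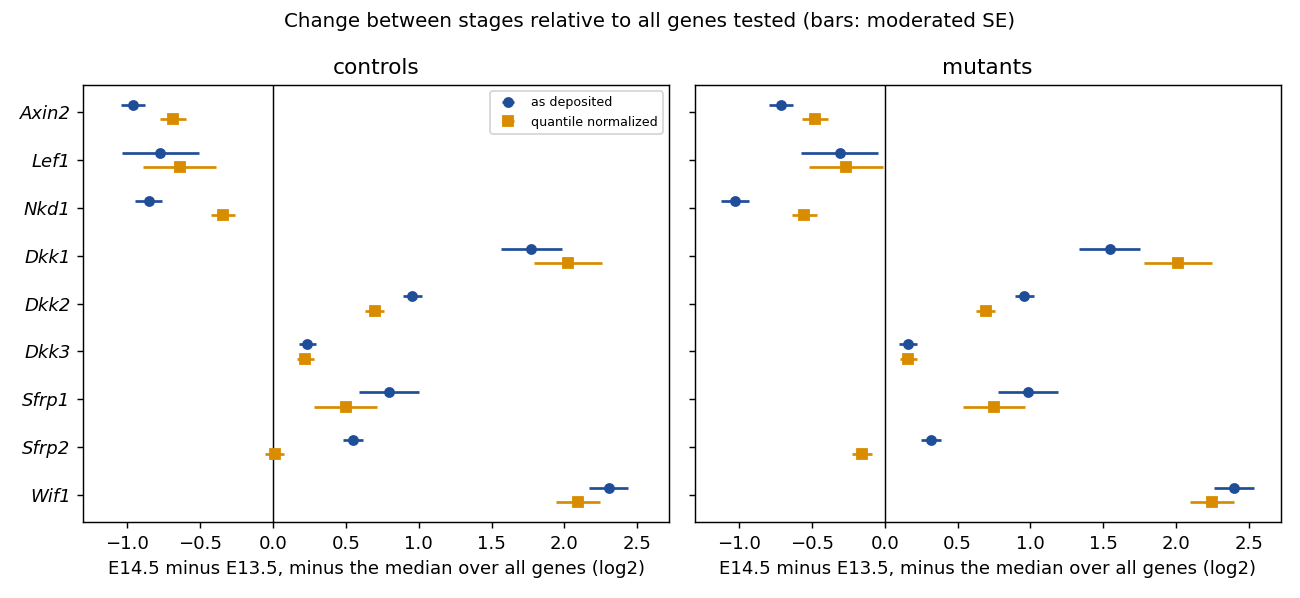
E14.5 minus E13.5 log2 change of each of the 9 genes tested (y axis), minus the median change over all genes (x axis), in controls (left) and mutants (right), with moderated SE bars. Circles are values as deposited and squares values after quantile normalization, and Axin2, Lef1 and Nkd1 lie left of 0 and Dkk1, Dkk2 and Wif1 right of 0 under both.

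Promoters of some of the members that moved with stage are shown because canonical Wnt targets are known to carry TCF and LEF sites. RefSeq promoters (GRCm38.p6) were found for 7 of the 10 members, and 10 promoters in all, 4 of them of Lef1. Notum, Dkk3 and Sfrp1 had no entry. Each window of 300 bases (250 before and 50 after the start) was searched on both strands for CTTTGA, which reads TCAAAG on the other strand. This is 1 form of the core of the TCF and LEF site. Other forms were not searched for and are not in capitals. Of all 32851 promoters, 16% held at least 1 match and 1.73% at least 2. Among the members, 2 promoters held a match, that of Dkk1 and 1 of those of Lef1, each with 2. The other Lef1 promoters and those of Dkk2, Nkd1 and Sfrp2, which also moved with stage in at least 1 genotype, held none and are not printed. The 250 bases before the start are printed 5′ to 3′ along the gene, with matches in capitals, for Dkk1 (chr19:30549497-30549746, minus strand), Lef1 (chr3:131156044-131156293, plus strand), Axin2 (chr11:108920099-108920348, plus strand) and Wif1 (chr10:121033754-121034003, plus strand).
Dkk1: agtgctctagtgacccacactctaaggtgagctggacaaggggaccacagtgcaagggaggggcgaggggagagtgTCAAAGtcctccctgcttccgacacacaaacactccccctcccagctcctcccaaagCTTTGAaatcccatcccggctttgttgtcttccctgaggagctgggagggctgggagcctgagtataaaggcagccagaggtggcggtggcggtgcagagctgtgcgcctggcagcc
Lef1: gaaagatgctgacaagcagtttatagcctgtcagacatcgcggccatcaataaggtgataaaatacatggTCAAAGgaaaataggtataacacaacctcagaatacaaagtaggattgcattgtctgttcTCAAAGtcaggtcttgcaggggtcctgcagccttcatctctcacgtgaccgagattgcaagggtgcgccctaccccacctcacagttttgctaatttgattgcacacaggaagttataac
Axin2: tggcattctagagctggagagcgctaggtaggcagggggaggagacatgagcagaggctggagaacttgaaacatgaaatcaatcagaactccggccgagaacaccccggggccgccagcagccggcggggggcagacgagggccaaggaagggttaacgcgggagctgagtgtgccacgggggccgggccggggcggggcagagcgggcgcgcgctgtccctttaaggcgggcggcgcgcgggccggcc
Wif1: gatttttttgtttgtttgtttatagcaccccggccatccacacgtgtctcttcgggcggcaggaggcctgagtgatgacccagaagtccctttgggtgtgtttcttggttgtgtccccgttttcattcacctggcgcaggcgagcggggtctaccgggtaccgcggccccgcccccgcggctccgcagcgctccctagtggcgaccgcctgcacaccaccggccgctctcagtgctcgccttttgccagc
In Dkk1 the matches begin 174 bases (other strand) and 117 bases (forward) before the start, and in Lef1 180 and 120 bases before it (both on the other strand). Neither Axin2, lower at E14.5 as deposited, nor Wif1, higher at E14.5, has these letters in this window.

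Of the other Wnt pathway genes, in 6 lists with 13, 16, 8, 22, 9 and 12 genes tested, 3 passed between genotypes. All 3 were at E14.5, where 2.63% of all genes tested passed. In the list of the R-spondin system, whose R-spondin ligands raise Wnt receptor levels, 2 of 8 genes tested rose and none fell at E14.5. Rspo2, a ligand that amplifies Wnt signals, rose by 0.71 ± 0.13 (limma adjusted p = 0.013), with 5.33 to 5.59 in mutants and 4.36 to 5.00 in controls. Lgr5, an R-spondin receptor and Wnt target, rose by 0.34 ± 0.08 (adjusted p = 0.037), with 5.69 to 5.96 against 5.37 to 5.51. For both genes, every mutant array lay above every control array as deposited. Of all genes tested, 4.9% did not overlap in either direction after the batch effect was removed. Of 12 other canonical targets, 1 fell and none rose: Bambi, a TGF-beta pseudoreceptor, fell by 0.25 ± 0.06 (adjusted p = 0.042), with 7.12 to 7.44 against 7.38 to 7.57. The next 2 of that list were Ccn4 at −0.26 ± 0.07 (adjusted p = 0.067) and Tnfrsf19 at −0.22 ± 0.06 (0.086). The Rspo2 call was lost in 4 of 31 alternatives: as the mean over its probe sets (0.29, adjusted p = 0.080), after quantile normalization (0.057), and with batch 1 (0.13) or batch 2 alone (0.070). The Lgr5 call was lost in 19, with an adjusted p of up to 0.29, among them without E13.5 control 2 or any 1 of the E14.5 arrays other than control 1. That of Bambi was lost in 21, with an adjusted p of up to 0.47, among them without any 1 of the E13.5 arrays and without any 1 of the E14.5 arrays other than mutant 2 and control 1. Epithelial markers were higher in the same mutants, as given above, and their part was not tested.

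No gene of the other 4 lists passed in any genotype comparison. Among 13 ligand and secretion genes, Wnt7a was at −0.18 ± 0.06 (limma adjusted p = 0.13) and Wnt4 at 0.29 ± 0.10 (0.17) at E14.5. Among 16 receptors, Fzd2, a Frizzled receptor, was at 0.20 ± 0.06 (0.093) and Fzd4 at 0.20 ± 0.08 (0.18). Among 22 genes of the beta-catenin core, the smallest p at E14.5 belonged to Tle4, a corepressor of TCF, at 0.09 ± 0.05 (0.32). Among 9 other antagonists, Nkd2, the relative of Nkd1, was at 0.25 ± 0.07 (0.076), Frzb, an Sfrp relative, at −0.19 ± 0.07 (0.15) and Shisa3 at 0.65 ± 0.28 (0.25). At E13.5 the smallest p of any of the 6 lists were those of Tnfrsf19 at −0.37 ± 0.08 (0.16) and Rspo1 at −0.38 ± 0.09 (0.17). List medians at E14.5 ran from −0.10 for the other targets to 0.19 for the other antagonists, beside 0.01 over all genes.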

How the data were processed

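Palate mesenchyme RNA of 4 groups by stage and genotype was measured on 16 one-colour Affymetrix arrays. The deposited values are log2 expression values that the authors made with GCRMA, per the submitters' processing notes, where no version of it is named. The series text names primary cells of the palatal mesenchyme, and the labels' protocol names tissue.

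A gene was represented by its brightest probe set with 1 gene in the platform annotation (34958 probe sets, with 932 naming several genes and 9211 none). Limma 3.58.1 (R 4.3.3) fitted all 16 arrays with 4 groups and the E14.5 batch on values as deposited. Genes with at least 3 arrays at log2 4 or more were tested (11115), with Benjamini-Hochberg adjustment over all of them and a threshold of 0.05. Correlations of deviations used 100000 permutations over all 16 arrays, two-sided. These took no account of the group means and batch removed beforehand, so their p may be too small. Precision is limited by the number of arrays. The members, lists, tests and alternatives were chosen with earlier results of these data known. Named genes were all 10 members and, from each other Wnt list, called genes or else those of smallest p, up to 3 at E14.5 and 2 at E13.5, of which a part is printed. Genes of like pattern were named for Axin2, as no member passed, and for Dkk1 after their values were seen. Replicate numbers were not treated as pairs in the main fit, because the labels do not say that they are. Same-numbered arrays' deviations correlated at −0.17, 0.17 and −0.08 at E13.5 and at −0.49 to 0.003 at E14.5. At E14.5 such arrays share a batch, and removing the batch effect by itself lowers these values, so they cannot exclude pairing. The fit was tested on simulated data. Alternatives covered filter, probe set, normalization, variance, batch, block, sex, beta-actin signal and left-out arrays. Those of the second Dkk1 probe set and of Rspo2, Lgr5 and Bambi were added after their values were seen. Figures used Python 3.11.15 and matplotlib 3.10.9.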

Additional observations from a re-analysis of the deposited data

Results flagged for a closer look

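In 3 of the 20 sets of 5 E14.5 arrays (10 genes in 2 genotypes), 1 array lay far from the others of its group by Dixon's criterion, which by chance picks about 1 in 20 groups. Dkk1 was 6.42 in control 1, where the other controls lay at 6.98 to 7.05. Lef1 was 6.04 in mutant 4, with the next array at 5.70. Wif1 was 8.38 in mutant 1, where the other mutants lay at 8.62 to 8.68. The groups of 3 arrays at E13.5 were not checked in this way.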

How the results depend on the processing

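The number of members called between genotypes was 0 at E13.5 in all 30 alternatives and 0 for the difference between stages in all 31. At E14.5 it was 0 in 24 of 32 and 1 with the mean over probe sets (Dkk1), a variance trend (Sfrp2), batch 2 alone (Dkk1) and the beta-actin signal as a term (Sfrp2), and 0 to 1 over fits without 1 array, being 1 without mutant 2 or control 1 (Dkk1), mutant 3 (Dkk3) or control 4 (Sfrp2). These counts take the probe set that stood for each gene. With every probe set tested for itself, the second of Dkk1 passed at E14.5 (−1.02, limma adjusted p = 0.028), as did 1.25% of all probe sets tested. It entered that fit through E14.5 controls alone, the group in which it was higher, and its call was lost in 11 of 23 alternatives. With stage, the number of members called in each single fit was 6 to 8 in controls (7 in the main fit) and 7 to 9 in mutants (8). In the main fit 86.5% and 85.3% of all genes tested passed for these comparisons, so such calls were common. These counts do not ask for agreement after quantile normalization as the stage calls above do, and they include Dkk3, whose direction then reversed.

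Over all genes, 6 to 85 passed at E13.5 (11 as reported), 31 to 371 at E14.5 (292) and 3 to 40 for the difference (13). At E14.5, 31 passed with batch 1 alone, 64 with the stage alone, 104 with the replicate block, 128 with batch 2 alone, 127 after quantile normalization, 143 with a term for sex, 155 with array weights and 184 with no filter. Without 1 E14.5 array it was 105 (mutant 1), 122 (mutant 5), 137 (control 2), 154 (control 3) and 194 (mutant 4), and 188 without E13.5 control 1. At E13.5, 85 passed with array weights, 35 without mutant 2 and 28 after quantile normalization. With the replicate block no member passed between genotypes (6 genes at E13.5, 104 at E14.5, 3 for the difference). The stage calls of Dkk1 and of Sfrp2 in mutants were lost (Sfrp2 −0.18, limma adjusted p = 0.16). However, the block fit compared the stages at the level of replicate 1, so these values are not the change over all replicates. The labels do not say whether the numbers pair the arrays. For genotype comparisons, whether this fit or the main one is apt therefore cannot be told.

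Directions changed as follows; the cause was not tested. With the mean over probe sets Sfrp1 was at 0.11 at E13.5, −0.19 for the difference, and −0.41 and −0.60 for stage in controls and mutants. Centred on array medians, stage values in controls were 0.16 for Axin2, 0.34 for Lef1, 0.26 for Nkd1, 1.35 for Dkk3 and 1.66 for Sfrp2, and in mutants 0.52, 0.92, 0.20, 1.39 and 1.55, and all genes had medians of 1.12 and 1.23. After quantile normalization Dkk3 was at 0.14 and 0.10 for stage, Nkd1 at 0.078 at E13.5 and Dkk1 at 0.0096 for the difference. The Dkk1 difference was 0.13 with batch 1 alone. At E13.5, the beta-actin term gave 0.17 for Lef1 and 0.029 for Sfrp2. Over the fits without 1 array, E13.5 values ran from −0.28 to 0.10 for Lef1, from −0.052 to 0.047 for Nkd1 and from −0.0076 to 0.1 for Dkk2. Genotype differences that kept their direction but shrank by over 1.5 times in at least 1 of these fits, each with its smallest value, were at E13.5 Axin2 (−0.051 without control 3), Sfrp1 (−0.21 without mutant 1) and Sfrp2 (−0.0093 without control 3), and at E14.5 Sfrp1 (−0.073 without control 1), Nkd1 (−0.043 without mutant 4) and Lef1 (0.26 without control 3), beside Dkk1 and Wif1 as given above. The Dkk3 difference between stages, near 0 as reported, was 0.039 centred on medians, 0.046 with batch 2 alone, 0.024 with the beta-actin term, 0.0016 without E14.5 controls 1 and 3, and −0.0409 to 0.0414 over the fits without 1 array. Proteins were not compared.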
